A study of Mus musculus with 29 samples.

Results

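The genes described here are 10 that macrophages express, taken from the count table by symbol: C1qa, C1qb and C1qc, the chains of complement component C1q, the receptors Csf1r, Cd163 and Mrc1, the adaptor Tyrobp, and Cd68, Lyz2 and Lgals3. They make up 10 of the 22537 gene symbols in the table and all 10 were kept for every test. They were chosen with earlier results of these data known. RNA was taken from the whole tibialis anterior (TA), a muscle of the lower hindlimb, of male C57BL/6 mice, all of which had been tested for physical function. The labels name no further allele and no treatment in any group. The study set gene expression in muscle against the loss of physical function with age. The first sequencing run held 7 mice at 24m (months of age) and 7 mice at 6m, and the second held 8 mice labelled 28m or older and the same 7 mice at 6m, prepared anew, so that 29 libraries came from 22 mice and each old group was compared with the 6m libraries of its own run.

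Macrophages of muscle take up dying cells and debris, and they help to clear and rebuild fibres after injury. C1q binds immune complexes and dying cells and starts the classical complement pathway, and, unlike most complement proteins, which come from the liver, it is made largely by macrophages within tissues. The survival of these cells depends on Csf1r, the receptor for the growth factors Csf1 and Il34. Cd163, the scavenger receptor for haemoglobin bound to haptoglobin, and Mrc1, the mannose receptor CD206, are widely used as markers of resident and repair-type macrophages, whereas Lgals3, which encodes the lectin galectin-3, is known to be high in activated and lipid-laden macrophages.

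Skeletal muscle fibre genes (Acta1, Ckm, Mylpf, Tnnt3, Pvalb and others of a list of 7) summed to between 108001 and 191621 CPM (read counts scaled to a common library size) per library, so that the defining genes of the labelled tissue were abundant. Total counts were between 17633475 and 33499162 per library, of which the 10 macrophage genes together held between 0.00692% and 0.0810%, with a median of 0.0132%. The lowest count of any of the 10 genes in any library was 26. Genes were measured in bulk muscle, so fewer cells of a type and less RNA per cell cannot be told apart. A trend across all genes also touches these values: over 12884 genes whose exonic length was known, log2 fold changes from 6m to 28m were lower in longer genes (Spearman's rho −0.54 across genes, which are not independent), with a median of 0.65 for genes of 500 to 1000 bases and −0.14 for genes of 5000 to 7000 bases. Within a library, the rho of expression relative to the mean of all libraries with gene length was between 0.34 and 0.45 in the 7 second-run libraries at 6m and between −0.51 and 0.27 at 28m. In the first run it was −0.47 in 6m replicate 4 and −0.39 in 24m replicate 4, which stood apart from the medians of 0.35 and 0.19 of their groups. Since the 10 genes differ in length from 667 to 6371 exonic bases, 28m results are given below with all genes as counted and with the trends over length and GC content removed in 1 fit. Length and GC content were not removed separately, so their parts cannot be told apart.

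Across the 10 genes, 28m muscle did not show a common shift. Lgals3 rose by 2.05 on the log2 scale, Tyrobp rose with less support, Cd163 fell, and the other 7 genes did not pass the test. Of all 12994 genes tested, 47.3% passed. With the length and GC trend removed, Tyrobp and Cd163 lost their calls and Lgals3 kept its own. None of the C1q chains passed in either age group. At 24m 3 of 7 mice, and at 28m 1 of 8, were above every 6m mouse in all 3 chains. At 24m none of the 10 genes passed the test, where 0.084% of 13103 genes did.

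C1qa, C1qb and C1qc encode the A, B and C chains, which assemble with each other in equal numbers, and the genes lie side by side on the minus strand of chromosome 4 (GRCm38: C1qb chr4:136880129-136886187, C1qc chr4:136889804-136893065, C1qa chr4:136895917-136898803). C1qa ranged from 7.06 to 20.6 CPM with a median of 9.71 in the second-run 6m libraries, and from 8.73 to 85.3 CPM with a median of 12.8 at 28m. The highest 28m value belonged to replicate 7 and the next highest was 19.4 CPM, below the highest 6m mouse, so that the groups overlapped except for that mouse. C1qb ranged from 5.88 to 21.0 CPM (median 8.01) at 6m and from 8.83 to 83.0 CPM (median 11.2) at 28m. All 8 mice at 28m were above the 6m median of C1qb, but 28m replicate 7 alone was above every 6m mouse. C1qc ranged from 6.47 to 19.1 CPM (median 10.4) at 6m and from 6.92 to 58.2 CPM (median 10.6) at 28m, with 4 mice at 28m above and 4 below the 6m median. The log2 fold changes were 0.89 ± 0.47 (SE) for C1qa, 0.92 ± 0.50 for C1qb and 0.52 ± 0.42 for C1qc, with adjusted p of 0.123, 0.139 and 0.317 in edgeR with Benjamini-Hochberg adjustment. Without 28m replicate 7 they were 0.13, 0.08 and −0.13, and with the length and GC trend removed 0.29, 0.31 and 0.16, none of which passed.

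The windows from 250 bases before to 50 bases after the start of C1qb (chr4:136886151-136886450, minus strand) and C1qc (chr4:136892865-136893164, minus strand) are shown because these neighbours moved together over the mice, and those of Lgals3 (chr14:47373610-47373909, plus strand) and Cd163 (chr6:124304401-124304700, plus strand) because they changed in opposite directions. The window of Lgals3 is that of its RefSeq start, which lies inside the gene as annotated by GENCODE, whose bounds are given with its values. Sequences are from RefSeq (GRCm38.p6), each 5′ to 3′ on the gene's own strand, with capitals for GAGGAA, the core bound by the macrophage factor PU.1, or its reverse complement TTCCTC.
C1qb: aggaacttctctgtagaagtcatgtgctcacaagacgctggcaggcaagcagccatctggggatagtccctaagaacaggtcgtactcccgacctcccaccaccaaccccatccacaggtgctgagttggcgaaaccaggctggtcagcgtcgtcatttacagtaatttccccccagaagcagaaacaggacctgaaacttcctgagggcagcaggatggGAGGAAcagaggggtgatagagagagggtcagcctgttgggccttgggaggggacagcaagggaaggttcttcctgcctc
C1qc: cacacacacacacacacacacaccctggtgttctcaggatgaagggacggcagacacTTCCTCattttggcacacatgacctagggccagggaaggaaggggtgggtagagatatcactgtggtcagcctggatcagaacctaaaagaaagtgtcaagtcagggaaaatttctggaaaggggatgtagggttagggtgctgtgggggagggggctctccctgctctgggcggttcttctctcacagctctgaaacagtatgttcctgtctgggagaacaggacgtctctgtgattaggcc
Lgals3: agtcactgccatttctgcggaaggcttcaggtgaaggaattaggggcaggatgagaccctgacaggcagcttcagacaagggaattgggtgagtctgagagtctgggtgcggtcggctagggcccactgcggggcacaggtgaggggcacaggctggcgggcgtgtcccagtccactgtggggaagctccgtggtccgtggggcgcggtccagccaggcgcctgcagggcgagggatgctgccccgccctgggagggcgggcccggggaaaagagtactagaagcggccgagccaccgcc
Cd163: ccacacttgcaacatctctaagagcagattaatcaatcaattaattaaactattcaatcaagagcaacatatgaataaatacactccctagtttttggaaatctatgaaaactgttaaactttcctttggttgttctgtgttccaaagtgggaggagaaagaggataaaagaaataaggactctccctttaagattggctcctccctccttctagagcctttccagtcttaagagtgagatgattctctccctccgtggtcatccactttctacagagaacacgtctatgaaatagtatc
GAGGAA or its reverse complement was found in 28.3% of 32851 RefSeq mouse windows of 300 bases. Of the 7 members with such a window read here, C1qb and C1qc held GAGGAA once each, Cd68 held it at 2 places and Mrc1 at 3, and it was not found in Cd163, Lyz2 or Lgals3. No match overlapped another in these windows, and a match is a description of the letters, not of a bound site.

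**Figure D1:**
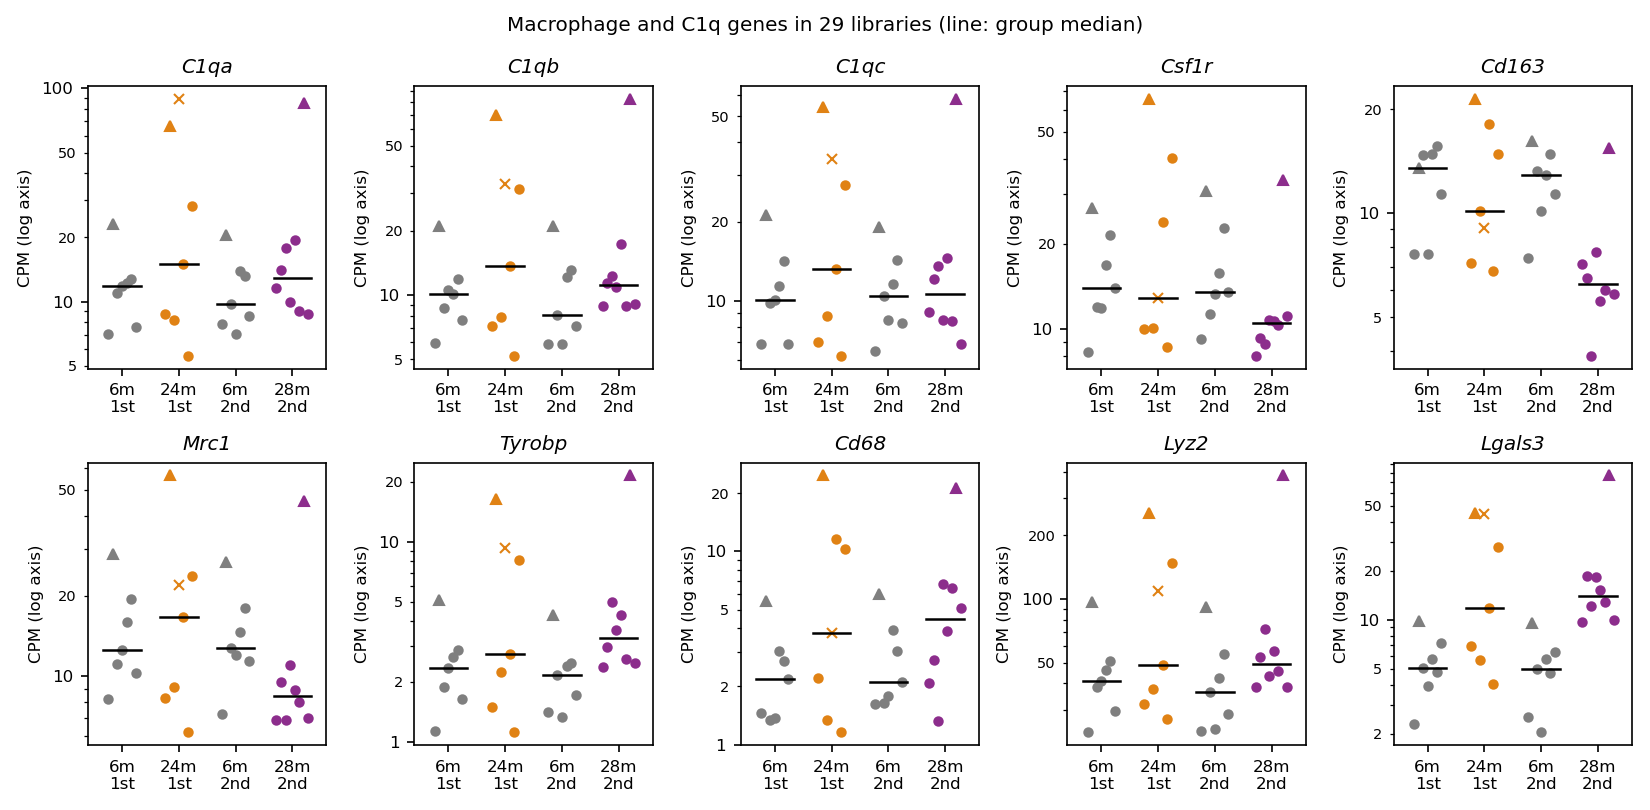
CPM (log axis) of each of the 10 genes in the 29 libraries, by age and run, with a line at the group median. Triangles are 6m replicate 2 in both runs, 24m replicate 2 and 28m replicate 7, and crosses are 24m replicate 4. A triangle tops most groups, as with C1qb at 83.0 CPM at 28m, while the remaining 28m mice of Cd163 lie between 3.87 and 7.73 CPM.

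On the log2 scale, all 3 chains spread more widely at 24m than at 28m, with SDs of 1.55 against 1.07 for C1qa, 1.38 against 1.08 for C1qb and 1.22 against 0.96 for C1qc. C1qa ranged from 7.03 to 23.2 CPM (median 11.8) in the first-run 6m libraries and from 5.58 to 89.4 CPM (median 14.9) at 24m. C1qb ranged from 5.94 to 21.1 CPM (median 10.2) at 6m and from 5.195 to 69.9 CPM (median 13.7) at 24m, and C1qc from 6.87 to 21.2 CPM (median 10.1) at 6m and from 6.23 to 54.2 CPM (median 13.2) at 24m. In each chain 3 mice at 24m, replicates 2, 4 and 7, were above every 6m mouse and 1, replicate 6, was below every 6m mouse. The log2 fold changes were 1.35 ± 0.57, 1.14 ± 0.52 and 0.90 ± 0.47, with adjusted p of 0.396, 0.417 and 0.449 in edgeR with Benjamini-Hochberg adjustment. Without 24m replicate 2 C1qb gave 0.57 and C1qc 0.47, and with the length and GC trend removed the chains gave between 0.76 and 0.99.

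The chains tracked each other across mice. On log2 CPM, after the group means were taken out, Pearson's r between pairs of chains was between 0.94 and 0.99 over the 14 libraries of the first run and between 0.97 and 0.98 over the 15 of the second. In each of these 6 pairs the permutation p of r was 2e-05, the smallest that 100000 permutations can give, and the adjusted p was the same. Spearman's rho was between 0.87 and 0.99, with adjusted permutation p between 3e-05 and 8e-05. With the 2 libraries farthest from the median left out, r was between 0.87 and 0.98. On a scale per length (RPKM), C1qa held a median of 42.5% of the 3 chains together, C1qb 36.7% and C1qc 20.4%, over the 28 libraries other than 24m replicate 4. The log2 ratio of C1qa to the mean of C1qb and C1qc was between −0.07 and 0.46 in those 28 libraries and 1.40 in 24m replicate 4, where C1qa held 64.0%. That library gave the highest C1qa value of its group, and without it the log2 fold change of C1qa at 24m was 0.85. It stood apart by its length trend as well. C1qa, C1qb and C1qc have 1040, 1088 and 1931 exonic bases, and 28m replicate 7, with a rho of −0.51, had a ratio of 0.30. The source of the ratio of 1.40 was not tested.

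Among the receptors and their adaptor, Cd163 (chr6:124304656-124330527, 5461 exonic bases) fell at 28m. Cd163 ranged from 7.41 to 16.2 CPM with a median of 12.9 at 6m and from 3.87 to 15.4 CPM with a median of 6.23 at 28m. In 6 of the 8 mice at 28m Cd163 was below every 6m mouse, in replicate 4 it was 7.73 CPM, just above the lowest of the 6m mice, and in replicate 7 it was 15.4 CPM. The log2 fold change was −0.79 ± 0.24 (adjusted p = 0.0139, edgeR, Benjamini-Hochberg), and without replicate 7 it was −1.04 (adjusted p = 0.000803). The call was kept in all 15 fits that left out 1 library and in 8 of 9 other alternatives. It was lost when the length and GC trend was removed, with −0.62 and adjusted p = 0.0516, and returned when replicate 7 was also left out.

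Csf1r (chromosome 18, plus strand, 5774 exonic bases, with Hmgxb3 overlapping on the other strand) and Mrc1 (chr2:14229392-14332057, 6371 exonic bases) did not pass the test with all mice. Csf1r ranged from 9.18 to 30.7 CPM (median 13.5) at 6m and from 8.02 to 33.8 CPM (median 10.5) at 28m. Mrc1 ranged from 7.23 to 26.9 CPM (median 12.8) at 6m and from 6.85 to 45.3 CPM (median 8.45) at 28m. In both genes 7 of 8 mice at 28m were below the 6m median and replicate 7 was above every 6m mouse. The log2 fold changes were −0.40 ± 0.32 for Csf1r and −0.21 ± 0.41 for Mrc1, with adjusted p of 0.304 and 0.679 in edgeR with Benjamini-Hochberg adjustment. Both values depended on single mice. Without 28m replicate 7 both genes fell, by 0.78 (adjusted p = 0.0119) and 0.85 (adjusted p = 0.00867) on the log2 scale, in the same test. Without 6m replicate 2, the highest 6m mouse in both genes, the values were −0.17 and 0.014, and neither passed. Leaving out the highest mouse of 1 group alone lowers that group by construction. With all mice and the length and GC trend removed, the values were −0.14 for Csf1r and 0.0035 for Mrc1. With that trend removed and replicate 7 left out, both still passed as lower, at −0.55 (adjusted p = 0.0463) and −0.72 (adjusted p = 0.0174).

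Tyrobp (chr7:30413760-30417585, 667 exonic bases) encodes DAP12, the signalling adaptor of Trem2 and other myeloid receptors. It ranged from 1.33 to 4.32 CPM with a median of 2.14 at 6m and from 2.35 to 21.5 CPM with a median of 3.30 at 28m. All 8 mice at 28m were above the 6m median and 2 were above every 6m mouse. The log2 fold change of 1.28 ± 0.48 passed (adjusted p = 0.0368, edgeR, Benjamini-Hochberg), but the call was lost without replicate 7 (0.53, adjusted p = 0.100), with the length and GC trend removed (0.52, adjusted p = 0.263), by DESeq2 (0.52, adjusted p = 0.0793), by limma-voom (0.92, adjusted p = 0.0969), and in 7 of the 15 fits that left out 1 library, the fit without replicate 7 among them. Of 9 other alternatives 4 called it. The DESeq2 value lay close to that without replicate 7, so these 2 losses are not counted as separate checks. Tyrobp is the shortest of the 10 genes, and genes of 500 to 1000 bases had a median log2 fold change of 0.65.

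In the first run these 4 genes did not pass at 24m. Csf1r reached 65.5 CPM and Mrc1 56.6 CPM in 24m replicate 2, against highest 6m values of 26.8 and 28.6 CPM, and Tyrobp reached 16.3 CPM against 5.13 CPM. The lowest 24m mouse, replicate 6, had 8.59 CPM of Csf1r, 6.18 CPM of Mrc1 and 1.12 CPM of Tyrobp, so that the 24m range covered almost the whole 6m range in each. Cd163 ranged from 6.78 to 21.5 CPM at 24m (median 10.1) and from 7.60 to 15.7 CPM at 6m (median 13.5). The log2 fold changes were 1.22 ± 0.56 for Tyrobp, 0.62 ± 0.46 for Csf1r, 0.42 ± 0.45 for Mrc1 and 0.03 ± 0.28 for Cd163, with adjusted p between 0.417 and 0.971 in edgeR with Benjamini-Hochberg adjustment. Without 24m replicate 2 Tyrobp gave 0.70, Csf1r 0.13, Mrc1 −0.10 and Cd163 −0.16, and with the length and GC trend removed the 4 gave 0.93, 0.59, 0.40 and 0.01.

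Of the lysosomal, secreted and lectin genes, Lgals3 (chr14:47367751-47386160, 1858 exonic bases) gave the largest change of the 10. It ranged from 2.05 to 9.61 CPM with a median of 4.97 at 6m and from 9.68 to 77.0 CPM with a median of 14.1 at 28m. All 8 mice at 28m were above all 7 at 6m, although by a narrow margin, and on CPM without TMM scaling 6 of 8 were. The groups did not overlap upward in 6.21% of the 12994 genes tested. The log2 fold change was 2.05 ± 0.47 (adjusted p = 0.00300, edgeR, Benjamini-Hochberg). It passed in all 15 fits that left out 1 library, with values between 1.41 and 2.29, and in 9 of 9 other alternatives, including 1.66 with the length and GC trend removed.

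Cd68 (chr11:69664213-69666153), a glycoprotein of macrophage lysosomes, ranged from 1.63 to 6.04 CPM (median 2.10) at 6m and from 1.32 to 21.4 CPM (median 4.49) at 28m, with 3 mice at 28m above and 1 below every 6m mouse. Lyz2 (chr10:117277331-117282321), the lysozyme of macrophages and granulocytes, ranged from 23.7 to 91.3 CPM (median 36.4) at 6m and from 38.3 to 384 CPM (median 49.4) at 28m. All 8 mice at 28m were above the 6m median of Lyz2, but replicate 7 alone was above every 6m mouse. The log2 fold changes were 1.08 ± 0.50 for Cd68 and 1.05 ± 0.51 for Lyz2, which did not pass (adjusted p = 0.0875 and 0.0992, edgeR, Benjamini-Hochberg). Without 6m replicate 2 both passed, at 1.38 (adjusted p = 0.0431) and 1.37 (adjusted p = 0.0465), and without 28m replicate 3 Cd68 passed at 1.23 (adjusted p = 0.0456). Without 28m replicate 7 the values were 0.46 and 0.18, and with the length and GC trend removed 0.58 and 0.43 (adjusted p = 0.343 and 0.449). DESeq2 gave 0.18 for Lyz2, as did the fit without 28m replicate 7, so these 2 are not separate checks. Lyz2 has a near-identical copy, Lyz1, to which between 27 and 191 counts per library were assigned, and how many reads the copies share was not measured, so its counts are uncertain.

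At 24m, Lgals3 ranged from 4.04 to 45.0 CPM with a median of 11.8, against 2.30 to 9.80 CPM with a median of 5.09 in the first-run 6m libraries, and 4 of 7 mice at 24m were above every 6m mouse. Cd68 ranged from 1.16 to 24.8 CPM (median 3.78) at 24m and from 1.34 to 5.52 CPM (median 2.19) at 6m, and Lyz2 from 27.1 to 256 CPM (median 48.6) and from 23.5 to 97.1 CPM (median 40.8). The log2 fold changes were 1.89 ± 0.54 for Lgals3, 1.63 ± 0.64 for Cd68 and 1.004 ± 0.496 for Lyz2, with adjusted p of 0.226, 0.370 and 0.440 in edgeR with Benjamini-Hochberg adjustment. Without 24m replicate 2 they were 1.57, 0.98 and 0.50, and with the length and GC trend removed 1.67, 1.504 and 0.81. By DESeq2, Lgals3 passed with 1.89 and adjusted p = 0.0221, and it was the single member among the 1.13% of 19019 genes called.

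Over the 10 genes, 3 passed at 28m, 2 of them higher and 1 lower, where 47.3% of the 12994 genes tested passed, 24.3% higher and 22.9% lower. A share of 3 in 10 is therefore below that of all genes. None of the 10 passed at 24m, where 0.084% of 13103 genes did, and 5 of the 10 (Lgals3, Cd68, C1qa, Tyrobp and C1qb) had an unadjusted p under 0.05, against 11.8% of all genes. Without 28m replicate 7, 4 of the 10 passed at 28m, Lgals3 higher and Cd163, Csf1r and Mrc1 lower, against 43.4% of all genes. With the length and GC trend removed Lgals3 passed alone, against 37.5% of all genes. Both age comparisons share the 7 mice at 6m, and the difference between their effects passed for none of the 10 genes or of 13455 genes (0% of them; 12% had an unadjusted p under 0.05, and limma-voom also called 0). The largest such differences were −0.997 ± 0.571 for Csf1r and −0.80 ± 0.38 for Cd163 (adjusted p = 0.462 and 0.414, edgeR, Benjamini-Hochberg).

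**Figure D2:**
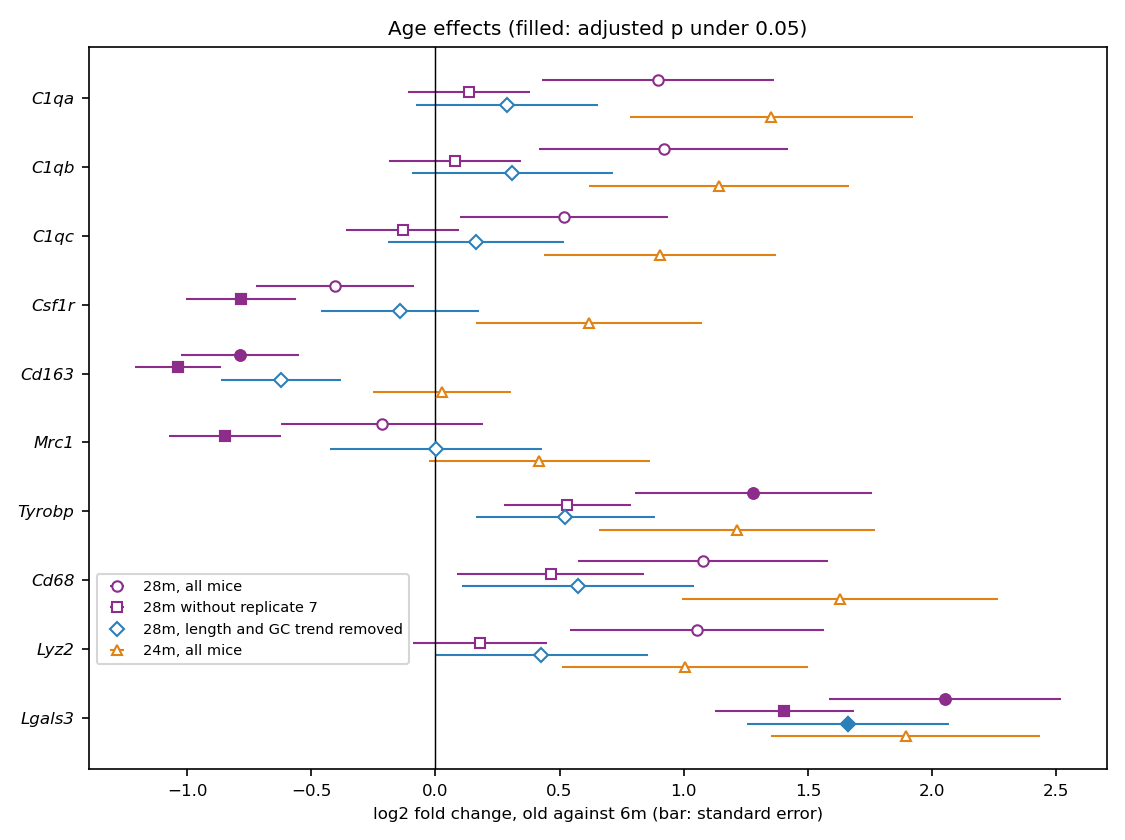
Log2 fold change of each gene (x axis, bars are standard errors) at 28m with all mice, without replicate 7, and with the length and GC trend removed, and at 24m with all mice. Filled symbols have an adjusted p under 0.05. Lgals3 is filled in all 3 fits at 28m, Cd163 at −0.79 and −1.04, and Csf1r and Mrc1 only without replicate 7.

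**Figure D3:**
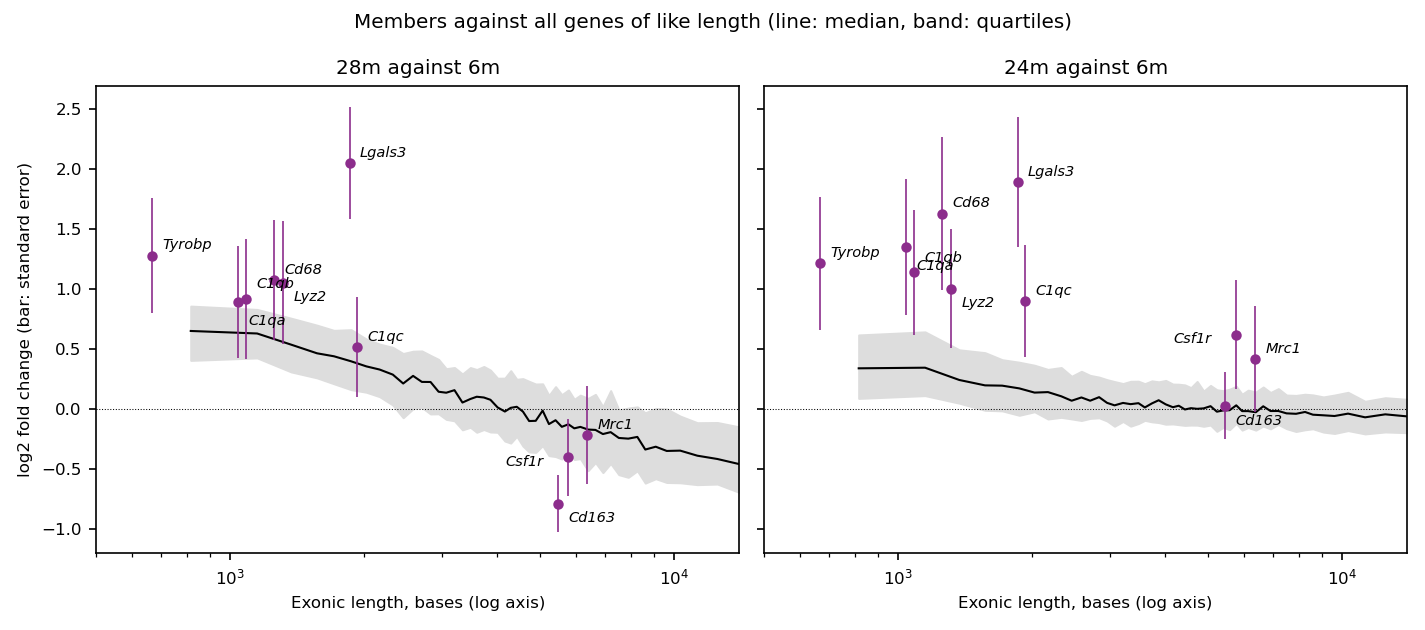
Log2 fold change (bars are standard errors) against exonic length in bases (log axis) for the 10 genes, over the median (line) and quartiles (band) of all genes tested in 50 groups of like length, at 28m and at 24m. At 28m the median falls with length, and Lgals3 at 2.05 and Cd163 at −0.79 lie outside the band on opposite sides.

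Single mice stood out in nearly every gene at once. At 28m, replicate 7 had the highest value in 10 of 10 genes. At 24m, replicate 2 was highest in 9 of 10 and replicate 6 lowest in 10 of 10. At 6m, replicate 2 was highest in 9 of 10 genes in the first run and in 10 of 10 in the second, from separate libraries of that mouse. In the second run Pearson's r between the within-group deviations of gene pairs was above 0 in all 45 pairs, with a median of 0.88 over 15 libraries, and in the first run the median was 0.88 over 14 libraries. These are descriptions without a test, over genes that share the same libraries. With the 2 farthest libraries of each pair left out, the second-run median was 0.60 with 43 of 45 pairs above 0, and the first-run median was 0.86 with 45 of 45 above 0, so that the size of the second-run values rests partly on those libraries.

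The 6m samples, made into libraries in both runs, show how far these differences recurred in a second library. Dissection and RNA extraction cannot be told apart from the mouse here. Pearson's r between the preparations over the 7 mice was between 0.82 for C1qa and 0.98 for Cd68 (exact permutation test, adjusted p over 10 genes between 0.00397 and 0.0381), and Spearman's rho was between 0.75 and 0.96 (exact permutation test, adjusted p between 0.00694 and 0.0663). With the 2 mice farthest from the median left out, r was between 0.42 for Tyrobp and 0.96 for Csf1r. The SD between mice was between 0.40 and 0.71 on the log2 scale, and that between preparations of 1 mouse was between 0.09 and 0.25. The second run differed from the first by between −0.14 and 0.20 on the log2 scale over the 10 genes, none of which passed (0% of 12884 genes passed in edgeR with mouse as a block, and 8.17% had an unadjusted p under 0.05). In replicate 4 the second library was lower by 0.91 in Lgals3 and higher by 0.41 in Cd163 on the log2 scale, whereas in C1qc, Csf1r and Mrc1 another mouse differed more than replicate 4. Between these libraries of 1 mouse, the difference over 13336 genes had a rho of 0.55 with gene length.

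**Figure D4:**
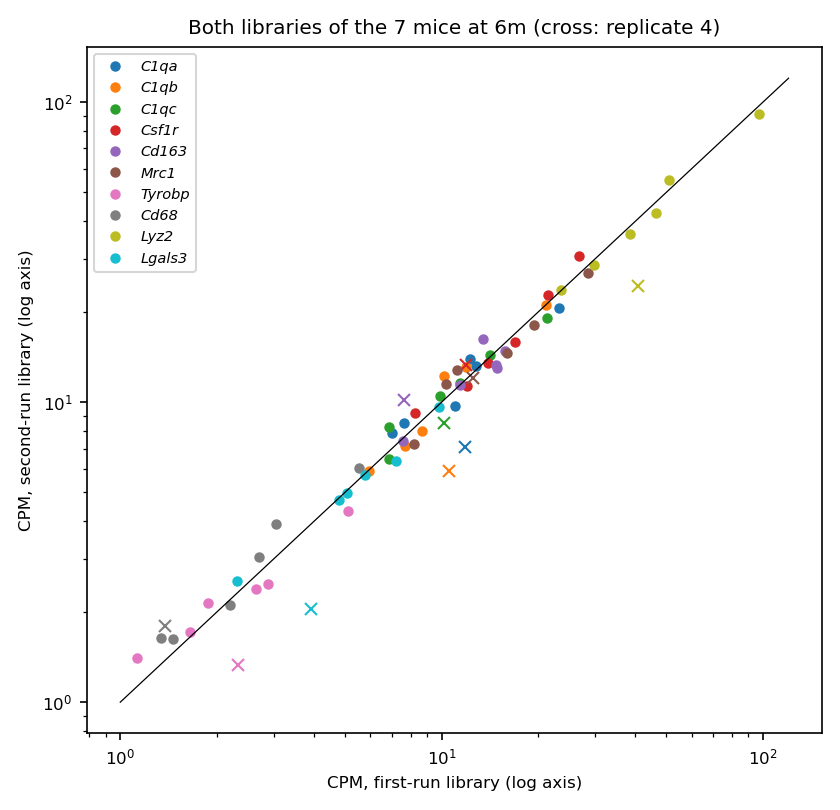
CPM of the 10 genes in the second-run library (y axis, log) against the first-run library (x axis, log) of each of the 7 mice at 6m, with the line of equality. Crosses are replicate 4, which lies farthest from the line in Lgals3 and C1qb, at −0.91 and −0.83 on the log2 scale.

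Set against the C1q chains of the same library, 3 of the other 7 genes did not overlap between 28m and 6m. The log2 ratio of Lgals3 to the mean of the chains averaged −1.16 ± 0.47 (SD) in the 7 second-run 6m libraries and 0.25 ± 0.41 at 28m, and all 8 mice at 28m were above all 7 at 6m. The ratio of Cd163 averaged 0.22 ± 0.31 at 6m and −1.07 ± 0.75 at 28m, with all 8 below. Tyrobp averaged −2.30 ± 0.12 and −1.79 ± 0.24, with all 8 above. For Csf1r and Mrc1, 7 of 8 mice at 28m were below every 6m mouse. For Cd68, 3 were above and 1 below every 6m mouse, and for Lyz2, 4 were above and 1 below, with mean differences of 0.32 and 0.25. Ratios that did not overlap were higher at 28m in 0.0693% and lower in 0.308% of 12991 genes. A gene that does not follow the chains carries their whole spread in its ratio, so it overlaps readily. These shares are therefore no like background for genes that follow the chains. Replicate 7, highest of the 28m mice in every gene, was outside the 6m range in these 3 ratios as the other 28m mice were. These values are a description without a test, and gene length moves with them, since Tyrobp is shorter and Cd163 longer than the chains. With the length and GC trend removed, the log2 fold changes of the chains were between 0.16 and 0.31, against 1.66 for Lgals3, 0.52 for Tyrobp and −0.62 for Cd163. At 24m the Lgals3 ratio averaged −0.29 ± 0.22 against −1.07 ± 0.52 at 6m, but no mouse at 24m was above every 6m mouse, and for Mrc1 6 of 7 mice at 24m were below every 6m mouse.

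**Figure D5:**
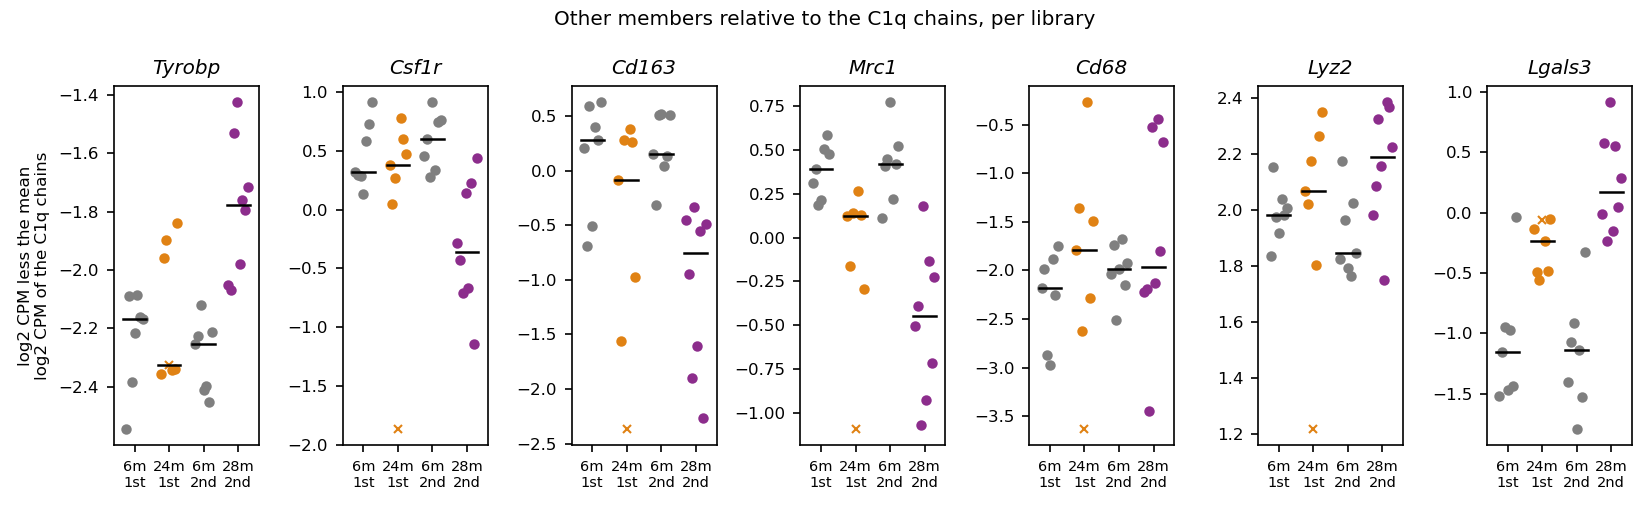
Log2 CPM of 7 genes less the mean log2 CPM of the C1q chains (y axis) in each library, by age and run, with a line at the group median and a cross for 24m replicate 4. All 8 mice at 28m lie above all second-run 6m mice in Lgals3 and Tyrobp and below them in Cd163.

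Of the other 7 members, Lyz2 and Tyrobp followed the chains most closely over the 15 second-run libraries (Pearson's r with the mean log2 CPM of the chains 0.98 and 0.98), and Cd163 and Cd68 least (0.74 and 0.66). Without 28m replicate 7 these were 0.95, 0.93, 0.42 and 0.32. Outside the 10 genes, those most like the chains among 12994 genes were Sfpi1 (now Spi1, the gene of PU.1, r = 0.97), Pf4, Cyba, Ftl1, Ctsh, Alox5ap, Folr2, Emp3, Ctss and Apoe (r = 0.95). Without 28m replicate 7 their r was between 0.87 and 0.92, and in the 14 first-run libraries between 0.87 and 0.97.

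The other macrophage genes were divided in direction at 28m, like the 10. Of 21 tested, 4 rose (Fcer1g, Aif1, Ctss and Trem2) and 2 fell (Mertk and Siglec1), where 47.3% of all genes passed. The list's median log2 fold change was 0.53 against 0.01 over all genes, and 0.03 without 28m replicate 7. Trem2, a lipid receptor that signals through Tyrobp, ranged from 0.169 to 1.59 CPM (median 0.497) at 6m and from 0.699 to 16.8 CPM (median 1.02) at 28m. Its log2 fold change was 2.32 ± 0.76 (adjusted p = 0.0207), and 0.84 without replicate 7 (adjusted p = 0.0690, both in edgeR with Benjamini-Hochberg adjustment). Siglec1, a sialic acid receptor of resident macrophages, fell by 1.19 and Mertk, a receptor for the uptake of dying cells, fell by 0.99 on the log2 scale (adjusted p = 0.00440 and 0.00211, same test). Ctss, a lysosomal protease, rose by 1.59 (adjusted p = 0.0227, same test). Without replicate 7 none of the 4 higher genes passed and Mertk and Siglec1 still did, and with the length and GC trend removed Trem2 passed higher and Mertk and Siglec1 lower. Adgre1 (Emr1 in the table, the F4/80 antigen) and Itgam (CD11b) gave −0.10 ± 0.43 and 0.15 ± 0.45, with adjusted p of 0.864 and 0.792. Of 8 further genes of resident macrophages, none passed with all mice, Cd209f passed lower with the length and GC trend removed, and Folr2, F13a1 and Cd209f passed lower without replicate 7, where 43.4% of all genes passed.

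Around Csf1r and Tyrobp, 9 genes were tested, of which Trem2 and Il34 rose and Csf1 fell, where 47.3% of all genes passed. Without 28m replicate 7 none of the 9 passed higher and Csf1 and Syk passed lower, and with the length and GC trend removed Trem2 and Irf8 passed higher. Il34 ranged from 3.88 to 6.21 CPM at 6m and from 4.90 to 8.73 CPM at 28m (log2 fold change 0.39 ± 0.14, adjusted p = 0.0306), and Csf1 from 10.2 to 16.8 CPM and from 7.27 to 13.6 CPM (−0.39 ± 0.14, adjusted p = 0.0313, both in edgeR with Benjamini-Hochberg adjustment). Neither ligand passed with the length and GC trend removed (0.13 and −0.19). Spi1 gave 0.87 ± 0.41, which did not pass (adjusted p = 0.0940, same test).

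Of 23 complement genes other than C1q, C8g and Cd59a rose at 28m and C3, C7, Masp1 and Cr1l fell, with a median of 0.13 over the list, where 47.3% of all genes passed. With the length and GC trend removed, C3, C7 and Serping1 passed lower and no gene of the list passed higher. C3, the central component on which all complement pathways meet, ranged from 49.1 to 126 CPM (median 97.5) at 6m and from 21.97 to 75.9 CPM (median 38.5) at 28m. Its log2 fold change was −1.14 ± 0.23 (adjusted p = 0.00166), and −0.97 with the length and GC trend removed (adjusted p = 0.00473, both in edgeR with Benjamini-Hochberg adjustment). C7, a part of the membrane attack complex, fell by 1.93 on the log2 scale (adjusted p = 0.000381, same test). C1ra and C1s1 (C1s in the table), the proteases that bind C1q, gave −0.15 ± 0.19 and −0.18 ± 0.16, and C4b, their substrate, gave 0.08 ± 0.31. None of these 3 passed (adjusted p between 0.334 and 0.849, same test).

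Of 14 lysosomal genes tested at 28m, Ctsl, Ctsz, Hexa and Npc2 rose and Psap fell, where 47.3% of all genes passed. With the length and GC trend removed Lamp2, Ctsb, Ctsl, Ctsz and Npc2 passed higher and Psap lower. Of 7 other genes of the galectin group Lgals1 and Lgals9 rose and Lgalsl (1110067D22Rik in the table) fell. Lgals1, which encodes galectin-1, rose by 0.74 ± 0.18 on the log2 scale (adjusted p = 0.00415, edgeR, Benjamini-Hochberg). With the length and GC trend removed neither Lgals1 nor Lgals9 passed as higher, and Lgalsl still passed lower. At 24m no gene of any of these lists passed. Trem2 gave 2.49 ± 0.78 there (adjusted p = 0.268) and C3 gave −0.16 ± 0.33 (adjusted p = 0.840, same test).

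Markers of other cells moved with some of these values, and their part in the results was not tested. The 4 pan-leukocyte genes summed to between 7.83 and 18.5 CPM in the second-run 6m libraries and between 10.9 and 55.8 CPM at 28m, highest in replicate 7, and Coro1a and Cd52 rose while Ptprc gave 0.09 ± 0.28. Without replicate 7 Cd52 was the single leukocyte gene called. The 7 neutrophil genes summed to at most 24.0 CPM, again in 28m replicate 7, and 0 of 3 tested passed. Of 3 monocyte genes Plac8 rose and Vcan fell, of 4 dendritic cell genes Xcr1 rose and Zbtb46 and Cd209a fell, and of 5 mast cell genes Cpa3 and Tpsb2 fell. Mcpt4 and Cma1 also passed lower, making 4 of 5, both with the length and GC trend removed and without 28m replicate 7. The 9 T and NK cell genes summed to at most 5.33 CPM in any library and none was abundant enough to test, and 0 of 1 B cell gene and 0 of 2 erythrocyte genes passed. Endothelial genes fell in 4 of 5 (Pecam1, Cdh5, Kdr and Tek), as did the fibroblast genes Pdgfra, Col1a1 and Col3a1 of 5, and the adipocyte gene Fabp4 of 5 rose. Muscle fibre genes Pvalb, Tnnt3 and Mylpf rose and Myh4 fell, of 7. These counts stand beside the 47.3% of all genes that passed. With the length and GC trend removed 3 of the 5 endothelial genes and 0 of the 5 fibroblast genes passed lower, and of the muscle fibre genes Mylpf passed higher and Acta1 lower. In that fit Vcan and Zbtb46 also lost their calls, and Plac8, Xcr1 and Cd209a kept theirs. In 6m replicate 2, the fibroblast genes summed to 2741 CPM against a group median of 705 CPM, and in 28m replicate 7 the adipocyte genes summed to 598 CPM against 349 CPM.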

How the data were processed

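Poly-A RNA of whole TA was sequenced as 75-base single-end reads. The authors aligned them to mm10 with STAR 2.5.4b and deposited raw read counts per gene symbol; the strand setting is not given in the sources used here. Labels carry ages, and column names carry the 2 preparations of each 6m mouse. The members and gene lists were chosen with earlier results of these data known.

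Counts were analysed with edgeR 4.0.16 (R 4.3.3) after filterByExpr and TMM scaling. The quasi-likelihood test compared 28m with second-run and 24m with first-run 6m libraries, and Benjamini-Hochberg adjusted p under 0.05 over all genes was called. No minimum fold was set, whereas the study required a log2 fold change of at least 1. The difference between age effects was fitted over all libraries and the runs with mouse as a block. CPM was scaled by TMM over 29 libraries, and 2 was added as prior count on the log2 scale. Exonic lengths were from GENCODE on GRCm38; 20205 of 22537 symbols matched directly and 1922 by synonym. Scripts were tested on simulated data.

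All members were named; of other lists, counts and up to 4 called genes (further called genes were named after their values were seen), a set of 11 genes named whatever their values, and the 10 most like the chains. Alternatives were DESeq2 1.42.0, limma-voom (limma 3.58.1), other scalings and filters, length and GC trend removed, 6m libraries of the other run, dispersion from all libraries, the replicate block and each library left out. Fits without the highest mice together, and without the trend and 28m replicate 7 together, were chosen after seeing the data. Separate mice, not cultures or repeats, are the replicates. At these depths 26 counts were the lowest of any member. One gene of the lists is not reported here.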

Additional observations from a re-analysis of the deposited data

Results flagged for a closer look

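In 17 of the 40 combinations of gene and group, 1 sample lay farther from the others than Dixon's 95% critical value allows. Chance would flag about 1 in 20 groups if the values were normally distributed, which was not tested. The combinations are also not independent, since the same mouse was far in many genes. In 28m replicate 7 this held for all 10 genes: C1qa at 85.3 CPM, C1qb at 83.0, C1qc at 58.2, Csf1r at 33.8, Cd163 at 15.4, Mrc1 at 45.3, Tyrobp at 21.5, Cd68 at 21.4, Lyz2 at 384 and Lgals3 at 77.0 CPM. In 6m replicate 2 it held for C1qa (23.2 CPM), C1qb (21.1 CPM), Cd68 (5.52 CPM) and Lyz2 (97.1 CPM) in the first run and for Tyrobp (4.32 CPM) in the second. In 24m replicate 2 it held for C1qb (69.9 CPM) and Mrc1 (56.6 CPM). In 24m replicate 4 the log2 ratio of C1qa to the mean of C1qb and C1qc was 1.40, far from the other 24m libraries.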

How the results depend on the processing

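Of the 10 genes, 3 passed at 28m, against 47.3% of all genes. Removing the length and GC trend left 1, against 37.5% of all genes. Leaving out the highest old and 6m mice together (chosen after seeing the data) gave 5, and leaving out 1 library gave between 2 and 5. Of these fits, the one without 28m replicate 7 called 43.4% of all genes, and the shares of the others are not given here. At 24m, DESeq2 called 1, against 1.13% of all genes, and every fit without 1 library called 0. Directions turned only in values that had not passed. At 28m, with the trend and replicate 7 both removed, C1qa gave −0.25, C1qb −0.29, C1qc −0.36 and Lyz2 −0.26. C1qc gave −0.12 by DESeq2, close to the −0.13 without 28m replicate 7. Over the fits without 1 library it gave between −0.13 and 0.71. Mrc1 gave 0.0035 with the trend removed and between −0.85 and 0.014 without 1 library. At 24m, Cd163 gave −0.039 by limma-voom, −0.13 without the highest mice and between −0.16 and 0.13 without 1 library, and Mrc1 between −0.10 and 0.66. In the difference between age effects, Tyrobp gave −0.35, Lyz2 −0.37 and Lgals3 −0.0025 with the trend removed, and Lyz2 −0.0090 without 6m replicate 4. Between runs, without 6m replicate 4, C1qa gave 0.011, C1qb 0.047 and Cd163 −0.022. Apart from what the trend and the named libraries account for by construction, the cause was not tested. With the replicate block, 0 genes passed in the difference between age effects, and without the replicate block 0 passed between runs, so the pairing of the 6m mice changed no call.

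The 24m and 28m mice were never sequenced in 1 run, so age beyond 24m and run are told apart only through the repeated 6m libraries. Mice of 1 group differed by up to 7.77 times their median in a single gene, and with 7 or 8 mice per group such a mouse decides the fold change of most of these genes. The lowest count of any of the 10 genes was 26, and that of Trem2 was 3 at 6m.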
